A study of Mus musculus with 4 samples.

Results

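The 77 genes described here are named as mitochondrial ribosomal proteins: 48 Mrpl genes for the large subunit and 29 Mrps genes for the small subunit. They were chosen by gene symbol alone (Mrpl or Mrps, a number and at most one further letter) among the genes of the deposited RPKM values, which list 14844 of the counted genes. All 77 passed the filter of at least 1 CPM (counts scaled by library size) in at least 1 library, among 12348 genes that did so out of 46078 counted. Mrpl53, which the RPKM values do not list, was left out. It had 1, 0, 1 and 0 counts, and 88.0% of its exon bases are shared with Ccdc142os and Gm42688.

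The mitochondrial ribosome translates the few proteins encoded by mitochondrial DNA, which are all core subunits of the respiratory chain and the ATP synthase. Its RNAs come from the mitochondrial genome, whereas its proteins are encoded in the nucleus, made in the cytosol and imported. The small subunit decodes the mRNA, and the large subunit forms the peptide bond and passes the nascent chain towards the inner membrane. Many of its proteins descend from bacterial ribosomal protein families, and others exist only in mitochondria.

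The cells were MLE-12, a mouse alveolar epithelial line derived from lung tumours of mice that carried a viral large T antigen under the surfactant protein C promoter. The study asked what Lingo1, a membrane protein with leucine-rich repeats, does in epithelial wound repair. There were 4 groups with 1 library each: wild-type unscratched, wild-type 24 h after a scratch, Lingo1 KO unscratched and Lingo1 KO 24 h after a scratch. How the knockout was made, and whether its cells are 1 clone, is not given in the sources used here. Where 4 values are listed below, they follow the order of that sentence.

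The libraries held 26903429, 27907279, 29533746 and 48333801 counts, so the last is the most precise. Lingo1 itself stood at 46.4, 42.9, 41.2 and 41.4 CPM, and the libraries are therefore called knockout-labelled. Of 9 markers of type 2 alveolar cells 5 passed the CPM filter, with summed levels of 371, 325, 451 and 422 CPM, whereas Sftpa1 and Sftpd had 0 counts in all libraries. Of 4 general epithelial markers 3 passed, with summed levels of 1039, 1123, 1046 and 1111 CPM. Of 4 leukocyte markers 1 passed the filter and Ptprc had 0 counts, as had the endothelial marker Cdh5. Of 5 fibroblast markers 3 passed, with summed levels of 2868, 2837, 2909 and 2660 CPM that came mostly from Dcn, and Col1a1 stood at 21.3, 16.5, 197 and 177 CPM. The part of these markers in the results was not tested. No condition has a replicate, so every interval below covers counting error only.

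Reference promoters show what the family's genes share in sequence. Of the 77 genes, 68 matched an entry among the RefSeq promoters (build GRCm38.p6), each running from 250 bases before to 50 bases after the start. The ETS motif CCGGAAG, searched on both strands like the others, was found in 25 of 68 (36.8%). It was found for 20.9% of tested protein-coding genes and 9.93% of all genes with an entry. The NRF1 motif TGCGCATGC was found in 6 (8.82%, against 3.61% and 1.72%). The YY1 motif AAGATGGC was found in 12 (17.6%, against 5.47% and 3.19%). The median GC content of the promoters was 58.5% for members and 52.7% for all entries, and its part in the matches was not tested. None of these 3 motifs contains another. ETS factors such as GABP, NRF1 and YY1 are known as activators of nuclear genes for mitochondrial proteins, but a match here describes letters and is no evidence of binding.

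The 120 bases before the start are shown for 4 genes that were higher in knockout-labelled cells and were picked for a match there. Mrpl12 and Mrps10, which were called higher as well, have no match to any of these motifs in their promoters. Mrpl17 also holds an ETS match 237 bases before the start, outside the bases shown. Also shown are Mrpl22, which holds an ETS and an NRF1 match, and Mrpl37, the member that fell in knockout-labelled cells. Mrpl37 has no match in this stretch. It holds a YY1 match 26 bases past the start and is counted with the YY1 matches above. Each stretch is written 5′ to 3′ on the gene's strand, with motif matches in capitals.
Mrpl17 (chr7:105811088-105811207, minus strand): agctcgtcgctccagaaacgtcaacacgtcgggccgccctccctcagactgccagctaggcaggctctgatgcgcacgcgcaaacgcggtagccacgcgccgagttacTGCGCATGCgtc
Mrpl34 (chr8:71464806-71464925, plus strand): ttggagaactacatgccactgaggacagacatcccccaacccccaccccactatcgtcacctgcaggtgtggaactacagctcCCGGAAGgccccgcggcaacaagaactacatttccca
Mrpl52 (chr14:54426789-54426908, plus strand): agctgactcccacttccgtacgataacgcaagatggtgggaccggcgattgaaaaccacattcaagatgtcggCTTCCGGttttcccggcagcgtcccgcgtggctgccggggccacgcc
Mrps26 (chr2:130563637-130563756, plus strand): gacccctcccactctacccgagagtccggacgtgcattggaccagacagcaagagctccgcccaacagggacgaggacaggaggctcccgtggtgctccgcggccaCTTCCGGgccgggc
Mrpl22 (chr11:58171544-58171663, plus strand): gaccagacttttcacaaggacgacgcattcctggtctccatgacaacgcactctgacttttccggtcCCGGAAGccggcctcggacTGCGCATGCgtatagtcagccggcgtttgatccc
Mrpl37 (chr4:107066867-107066986, minus strand): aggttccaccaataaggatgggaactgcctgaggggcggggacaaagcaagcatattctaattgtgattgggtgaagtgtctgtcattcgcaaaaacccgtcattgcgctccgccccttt

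Levels differed widely between members although the proteins assemble into one particle. Only the RPKM scale (reads scaled by gene length and library size) allows genes to be compared. The mean over the 4 libraries had a median of 15.7 and ran from 0.357 for Mrpl23 to 74.8 for Mrpl49, a 210-fold range. The gene lengths implied by the deposited values ran from 0.486 to 7.26 kb over members, and the ranking depends on them. In the large subunit the highest members were Mrpl49 (74.8), Mrpl28 (68.2), Mrpl43 (65.6), Mrpl10 (63.1) and Mrpl14 (62.5). The lowest were Mrpl23 (0.357), Mrpl47 (3.60) and Mrpl48 (4.21). In the small subunit Mrps21 (69.4), Mrps7 (40.9), Mrps15 (38.0), Mrps23 (34.8) and Mrps18c (29.1) led, and Mrps34 (1.01), Mrps10 (3.64) and Mrps22 (5.06) were lowest.

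These gaps between members were far wider than any difference between libraries. Mrpl49 was at 74.0, 82.0, 72.4 and 70.9 RPKM. Mrpl23, of the family that lines the peptide exit, was at 0.459, 0.424, 0.237 and 0.308 RPKM. Mrps34 was at 1.12, 0.723, 1.22 and 0.960 RPKM, but 77.8% of its exon bases overlap Mapk8ip3 and Nme3, and whether counting used strand is not given in the sources used here. In all, 17 members share at least 10% of their exon bases with another gene and 45 share none; Mrpl23 is among the latter.

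**Figure D1:**
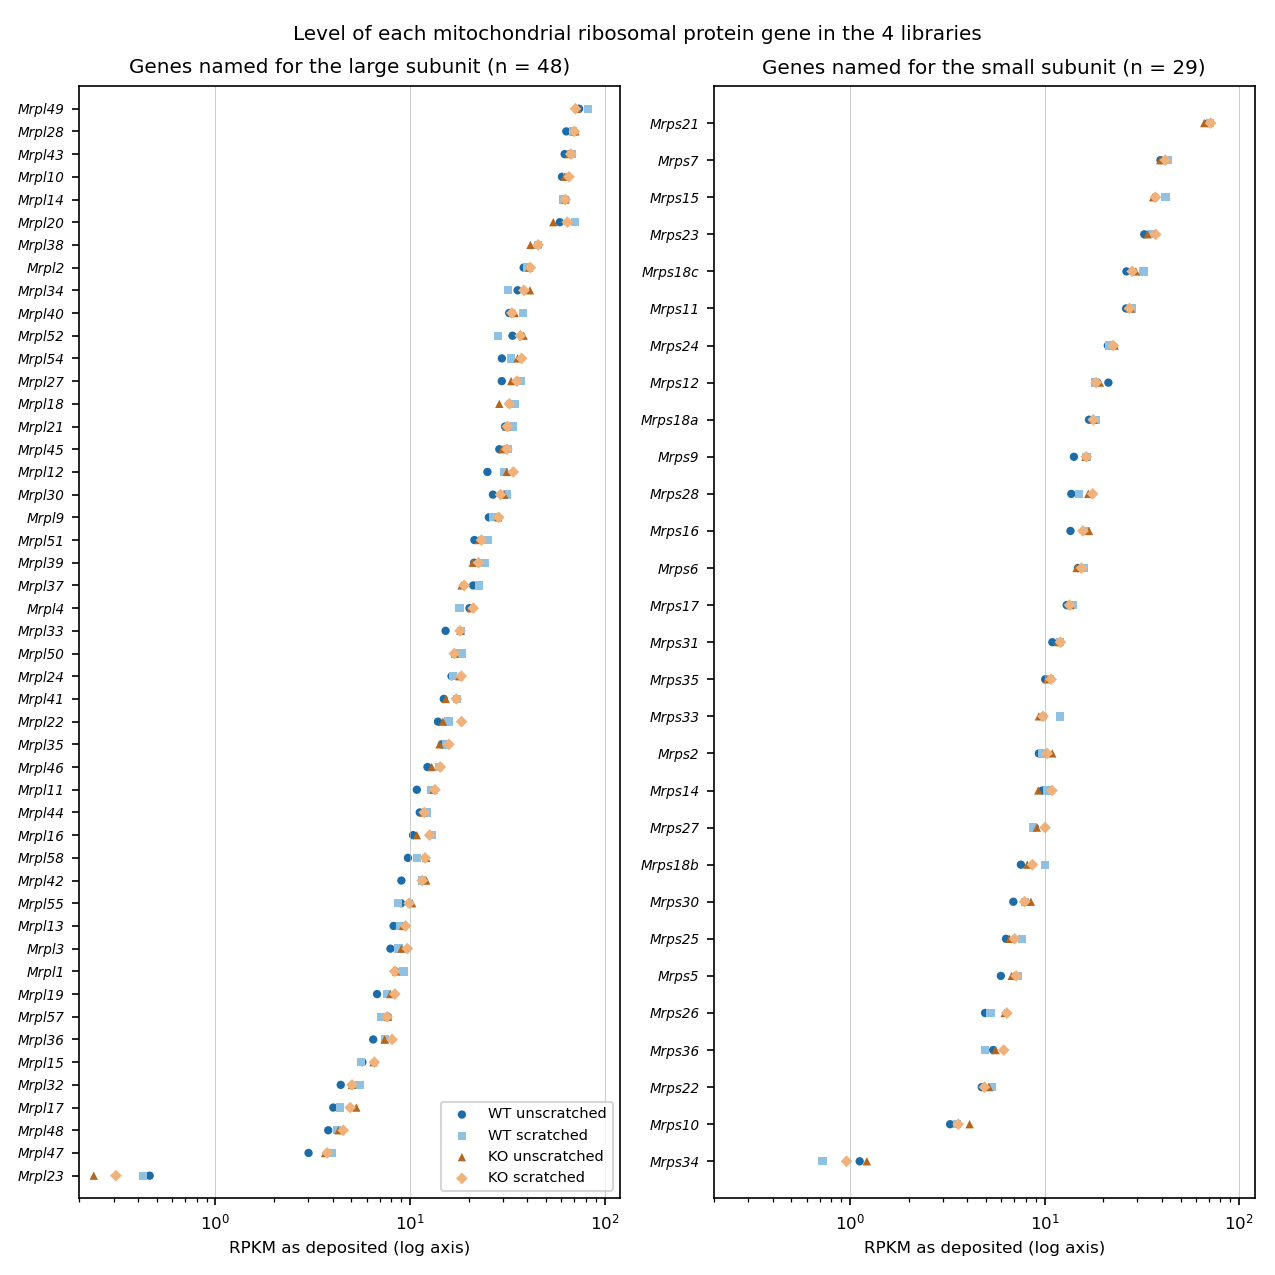
RPKM (log axis) of each of the 77 members, large and small subunit apart and sorted by mean, with 1 point per library. The spread between members, from 0.357 to 74.8 in the mean, far exceeds the spread of the 4 points of nearly every member.

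The large subunit took a nearly constant share of the family. Of the summed counts of the 77 genes, 69.5% (95% Clopper-Pearson interval 69.2 to 69.9), 69.4% (69.1 to 69.8), 69.4% (69.1 to 69.7) and 69.6% (69.4 to 69.9) fell on Mrpl genes. These intervals overlap, so no shift between subunits was detectable at this depth. Names do not match structure throughout: the Mrps18a and Mrps30 products sit in the large subunit, and Mrps36 is a component of the 2-oxoglutarate dehydrogenase complex. With those 3 genes placed accordingly the share was 72.1%, 72.0%, 72.1% and 72.2%. The median RPKM was 16.9 to 18.4 over large-subunit members and 10.97 to 12.1 over small-subunit members.

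As a whole the family was low in a single library. The summed CPM was 2598 in wild-type unscratched cells against 2862, 2769 and 2858 in the other libraries, or 0.262% against 0.286%, 0.277% and 0.283% of all counts. Wild-type unscratched was the lowest of the 4 libraries for 52 of 77 members (67.5%), where 31.9% of all tested genes had their lowest value there. It was the highest library for 2 members, against 26.1% of tested genes. Both subunits showed this: 41 of 48 large-subunit and 27 of 29 small-subunit members lay below their own mean in that library, with median deviations of -0.10 and -0.08 (log2), against -0.01 over all tested genes.

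Other lists give a measure of how far this low value reached. The share with its lowest value in wild-type unscratched cells was 70.3% of 74 nuclear respiratory chain genes and 82.3% of 79 cytosolic ribosomal protein genes. The 7 mitochondrially encoded mRNAs tested summed to 9550, 6856, 6777 and 7680 CPM, and each was highest in wild-type unscratched cells. With 1 library per condition, a state of that culture and a property of that library cannot be told apart.

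**Figure D2:**
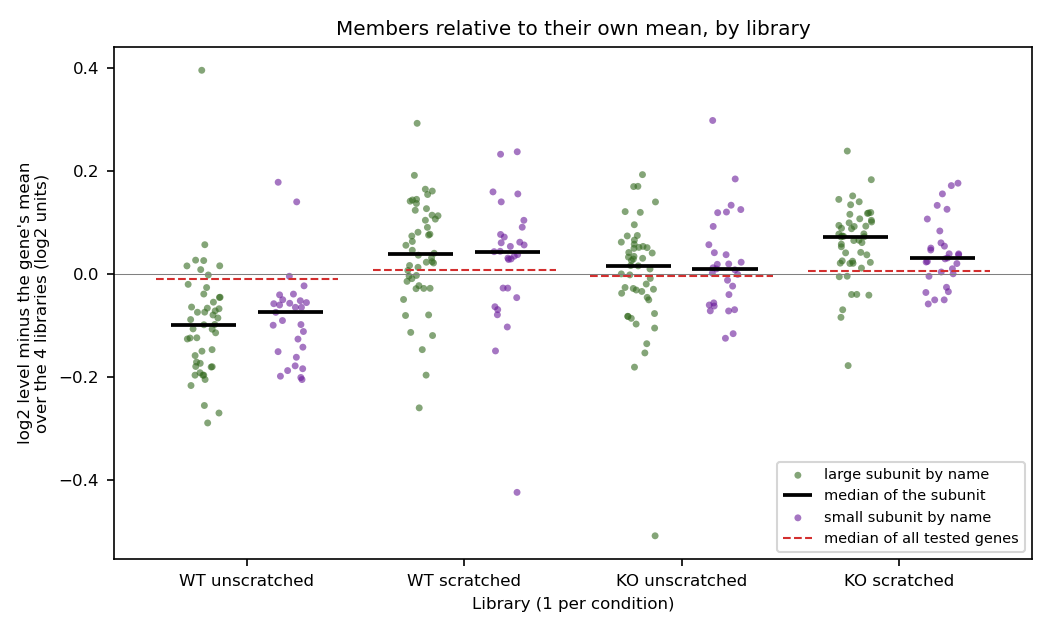
Deviation of each member's log2 CPM from its own mean over the 4 libraries, by library and subunit, with the medians marked. In wild-type unscratched cells 68 of the 77 members lie below 0, whereas the other libraries have 25, 34 and 16 below 0.

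Genotype was compared in unscratched and in scratched cells. Without a scratch the median log2 difference of knockout-labelled over wild-type cells was 0.10 over Mrpl and 0.08 over Mrps genes, against 0.01 over all tested genes. Of the 77 members, 62 were above 0 (80.5%, against 51.5% of tested genes). A member was called when its log2 difference reached 0.32 in size and its 95% counting interval excluded a ratio of 1. By that rule 5 members were higher (6.49%, against 8.93% of tested genes) and 1 was lower (1.30%, against 7.52%). After the scratch the medians were 0.03 and -0.00, 41 members were above 0 (53.2%, against 50.5%), and 1 was called higher (1.30%, against 7.22%) and 0 lower (against 5.43%). The family's shift was thus seen without a scratch only, in the comparison that uses the low wild-type unscratched library, and was made of many small differences. After the scratch the share above 0 was near that of all tested genes. The shares of called members were no larger than those of all tested genes.

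The members called higher in unscratched knockout-labelled cells were Mrpl42, Mrpl17, Mrps26, Mrps10 and Mrpl12. Mrpl42, a protein found only in mitochondria, was at 29.4, 37.9, 39.7 and 38.0 CPM, a ratio of 1.35 (1.23 to 1.48) without a scratch. Only the wild-type unscratched value stood apart, and the ratio after the scratch was 1.00 (0.930 to 1.08). Mrps10 was at 13.3, 14.5, 16.8 and 14.8 CPM, a log2 difference of 0.34, and the difference after the scratch was 0.03. Mrpl23, the member called lower, was at 1.70, 1.58, 0.879 and 1.15 CPM, 1.93-fold (1.17 to 3.26) lower, from 26 to 55 counts.

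A fit across all tested genes with additive terms for genotype and scratch (edgeR's quasi-likelihood test with Benjamini-Hochberg adjustment) gave the average genotype difference over both scratch states, which need not hold in each. It has 1 residual degree of freedom, so it compares these libraries and not independent cultures. In knockout-labelled cells 9 members rose (11.7%, against 13.8% of tested genes) and 1 fell (1.30%, against 12.2%). With DESeq2's Wald test in the same design 0 of the 77 members passed, against 968 of 12348 tested genes. An unadjusted p under 0.05 was reached by 5 members in DESeq2 (against 2141 tested genes) and by 19 in edgeR (against 4497).

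The 9 that rose were 7 Mrpl and 2 Mrps genes. Mrps26, a small-subunit protein found only in mitochondria, was at 21.1, 22.6, 26.7 and 27.5 CPM, a log2 difference of 0.31 ± 0.08 (SE; edgeR adjusted p = 0.00619). Mrpl52, likewise found only in mitochondria, was at 28.6, 24.3, 32.8 and 31.7 CPM, with 0.29 ± 0.08 (edgeR adjusted p = 0.00681). Mrpl17, of a bacterial family, was at 29.3, 31.9, 38.6 and 36.1 CPM, with 0.28 ± 0.07 (edgeR adjusted p = 0.00508). For these 3 genes both knockout-labelled libraries stood above both wild-type libraries. They were picked by the genotype term, so this order is no further support.

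Mrpl12, part of the stalk that recruits translation factors, was at 32.7, 40.1, 41.3 and 44.9 CPM, with 0.24 ± 0.07 (edgeR adjusted p = 0.00716). Of its exon bases 13.1% overlap Gm16755, on the opposite strand only. The other stalk proteins did not pass: Mrpl10 was at 103, 109, 106 and 113 CPM and Mrpl11 at 32.8, 39.3, 40.2 and 41.1 CPM. Mrpl34 rose as well, at 21.6, 19.4, 25.1 and 23.5 CPM with 0.24 ± 0.08 (edgeR adjusted p = 0.031). The genotypes did not overlap for Mrpl12 and Mrpl34, which were also picked by the genotype term. For Mrpl12 the margin was small, with 40.1 CPM in wild-type scratched against 41.3 CPM in knockout-labelled unscratched cells. Its ratio of scratched over unscratched in wild-type cells was 1.23 (1.12 to 1.34).

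Mrps28 was at 10.7, 11.8, 13.1 and 13.9 CPM, with the highest adjusted p of those that rose (edgeR, 0.0437). Mrpl58, a peptidyl-tRNA hydrolase that is part of the large subunit and can free stalled chains, was at 25.2, 28.3, 31.4 and 31.2 CPM (edgeR adjusted p = 0.0356). Mrpl15 (edgeR adjusted p = 0.0431) and Mrpl19 (edgeR adjusted p = 0.0407) completed the 9, with log2 differences of 0.21 and 0.18. The genotypes did not overlap for any of these 4 genes, which were likewise picked by the genotype term. With scaling by total counts 6 members rose, since Mrpl15, Mrpl19 and Mrps28 no longer passed, and Mrpl19 and Mrps28 also did not pass without the low-count filter. Mrpl15 and Mrpl19 are named after their values were seen, and 36% of the exon bases of Mrpl19 overlap Gcfc2, on the opposite strand only.

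Mrpl37, a large-subunit protein found only in mitochondria, was the member that fell. It was at 58.8, 63.3, 51.4 and 53.3 CPM, a log2 difference of -0.22 ± 0.05 (edgeR adjusted p = 0.00273). Both wild-type libraries were above both knockout-labelled ones, from 1522 to 2554 counts per library, but Mrpl37 too was picked by the genotype term. Counting intervals lay below a ratio of 1 in both genotype comparisons for this 1 member (1.30%, against 14.6% of tested genes). They lay above 1 in both for 12 members (15.6%, against 16.4% of tested genes).

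**Figure D3:**
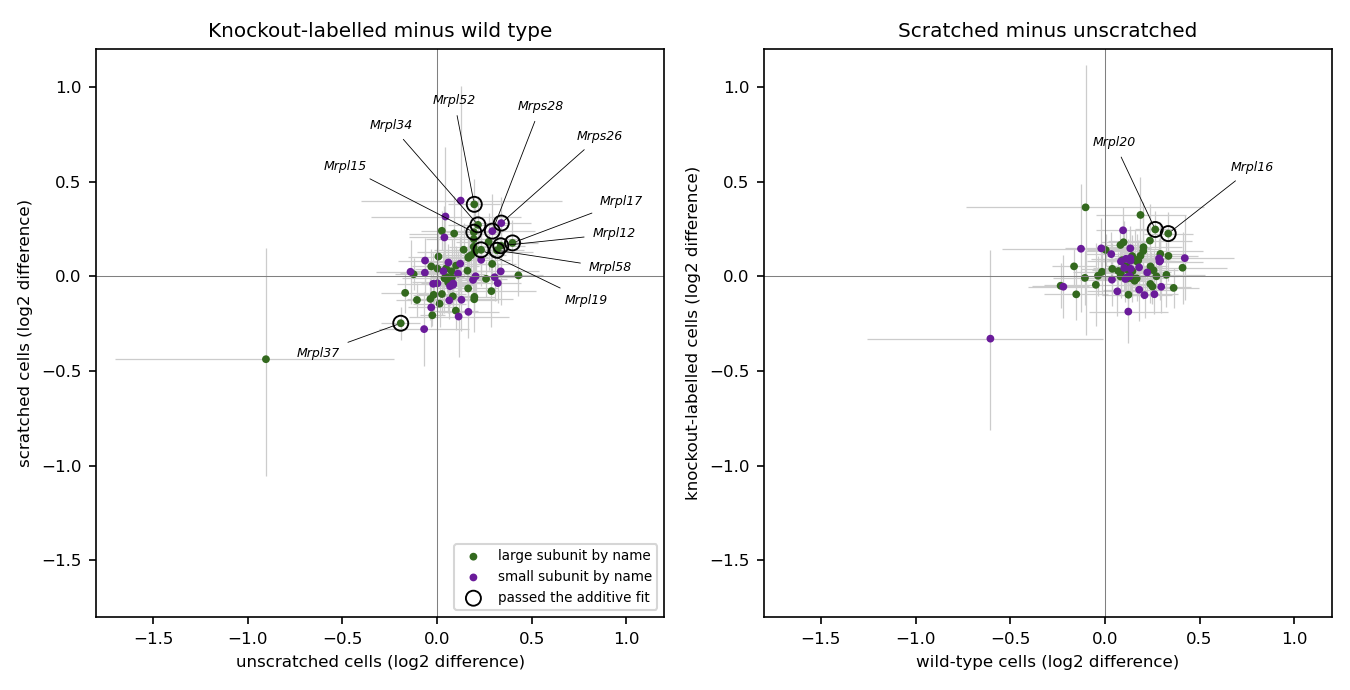
Log2 differences of the 77 members: at left knockout-labelled minus wild type in unscratched (x) and scratched (y) cells, at right scratched minus unscratched in wild-type (x) and knockout-labelled (y) cells, with 95% counting intervals as grey lines. Rings mark the 10 members past the additive fit for genotype and the 2 for scratch, and most points lie within 0.5 of 0.

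The scratch was compared within each genotype. The wild-type comparison shares the wild-type unscratched library with the unscratched genotype comparison, so their values are not independent. In wild-type cells the median log2 difference of scratched over unscratched was 0.15 over Mrpl and 0.13 over Mrps genes, against 0.02 over all tested genes, and 65 of 77 members were above 0 (84.4%, against 54.5%). With trends of gene length and GC content removed, the medians were 0.09 and 0.07. Here 6 members were called higher (7.79%, against 2.28% of tested genes) and 1 lower (1.30%, against 4.14%). In knockout-labelled cells both medians were 0.04 (0.02 with those trends removed), 52 members were above 0 (67.5%, against 53%), 1 was called higher (1.30%, against 1.47%) and 0 lower (against 2.15%). No member reached 2-fold in any comparison, against 2.24% and 1.9% of tested genes for genotype (unscratched, scratched) and 0.858% and 0.267% for the scratch (wild-type, knockout-labelled).

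The scratch response was smaller in knockout-labelled than in wild-type cells for 4 members (5.19%, against 2.14% of tested genes) by the same rule applied to the difference of the responses, and larger for 0 (against 3.15%). These 4 were Mrpl42, Mrpl47, Mrps16 and Mrps18c, and in each the wild-type unscratched library was the lowest.

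The 6 members higher after the scratch in wild-type cells were Mrps18b, Mrpl47, Mrpl42, Mrpl27, Mrpl16 and Mrpl32, with log2 differences from 0.33 to 0.42. Mrps18b was at 8.12, 10.9, 8.79 and 9.40 CPM, a ratio of 1.34 (1.13 to 1.60), although 30.5% of its exon bases overlap Gm16279. Its paralogs did not reach the fold: Mrps18a was at 37.4, 41.0, 39.7 and 39.7 CPM and Mrps18c at 21.5, 26.5, 24.1 and 23.2 CPM. Mrps34, the member called lower, was at 2.10, 1.36, 2.30 and 1.82 CPM, with the exon overlap given above. Mrpl22, at the peptide exit, was the member called higher in knockout-labelled cells, at 9.998, 11.4, 10.7 and 13.3 CPM with a log2 difference of 0.32. The calls of Mrpl22 and of Mrpl32 in wild-type cells were lost with total counts, DESeq2 size factors or the RPKM values.

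Across both genotypes 2 members rose after the scratch in the additive fit (2.60%, against 1.47% of tested genes) and 0 fell (against 1.44%). An unadjusted p under 0.05 was reached by 18 of the 77 members in edgeR (against 1998 of 12348 tested genes) and by 2 in DESeq2 (against 461). With DESeq2 0 members passed, against 36 tested genes. It gave no adjusted p to 2 members and to 1676 tested genes. Mrpl20 was at 47.5, 57.1, 44.1 and 52.3 CPM, with 0.26 ± 0.06 (SE; edgeR adjusted p = 0.0103). Mrpl16 was at 30.8, 38.8, 32.3 and 37.8 CPM, with 0.28 ± 0.07 (edgeR adjusted p = 0.027). Both are large-subunit proteins of bacterial families. For both genes the scratched libraries exceeded both unscratched ones, but the genes were picked by the scratch term. Counting intervals lay above a ratio of 1 in both scratch comparisons for 8 members (10.4%, against 8.78% of tested genes). They lay below 1 in both for 0 members (against 4.92%).

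The remaining members at named sites passed neither term of the fit. Mrps12, in the decoding centre, was at 18.7, 16.1, 17.0 and 16.3 CPM and went against the family by being highest in wild-type unscratched cells. At the peptide exit Mrpl24 was at 21.8, 22.4, 24.0 and 24.7 CPM. Mrpl45, which tethers the ribosome to the inner membrane, was at 69.6, 77.1, 72.1 and 76.9 CPM.

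Genes that assemble or serve the mitochondrial ribosome were read from lists drawn up beside the family. The GTPase Dap3, a small-subunit protein without an Mrps symbol, was at 68.2, 70.3, 69.3 and 72.2 CPM. Of 16 translation factors 5 rose with genotype (31.3%, against 13.8% of tested genes) and 0 fell (against 12.2%). Tsfm, the exchange factor of the elongation factor Tufm, was at 17.1, 18.6, 21.4 and 23.9 CPM, with 0.34 ± 0.09 (SE; edgeR adjusted p = 0.00388). Tufm rose by less, with 0.20 ± 0.07 (edgeR adjusted p = 0.0322), and the membrane insertase Oxa1l by 0.30 ± 0.05 (edgeR adjusted p = 6.35e-05). Of 26 assembly genes 0 rose (against 13.8% of tested genes) and 1 fell (3.85%, against 12.2%): Nsun4, an rRNA methyltransferase, at 96.9, 103, 77.9 and 82.6 CPM, with -0.32 ± 0.05 (edgeR adjusted p = 6.12e-05). Of 20 genes for mitochondrial tRNA charging 1 rose (5.0%) and 1 fell (5.0%). Of 9 genes for mtDNA transcription and replication 0 rose and 0 fell. The genotype medians in unscratched cells were 0.12 for translation factors and 0.10 for assembly genes, next to 0.10 for the family. They were 0.09 for tRNA charging, 0.05 for the mtDNA genes and 0.05 for subunits without an Mrp name.

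For cytosolic ribosomal protein genes the genotype medians were 0.35 without and 0.23 with a scratch, and 69 of 79 rose with genotype (87.3%, against 13.8% of tested genes and 11.7% of the mitochondrial ribosomal protein genes). The nuclear respiratory chain genes had medians of 0.10 and 0.01, and 7 of 74 rose (9.46%, below the 13.8% of tested genes). The 7 mitochondrially encoded mRNAs had medians of -0.51 without and 0.04 with a scratch, and 4 fell and 0 rose in the additive fit. That average does not describe both states: all 7 were called lower without a scratch, all 7 were above 0 after it, with 4 intervals above a ratio of 1, and for all 7 the scratch response was larger in knockout-labelled cells. No test of the difference between these sets was run.

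**Figure D4:**
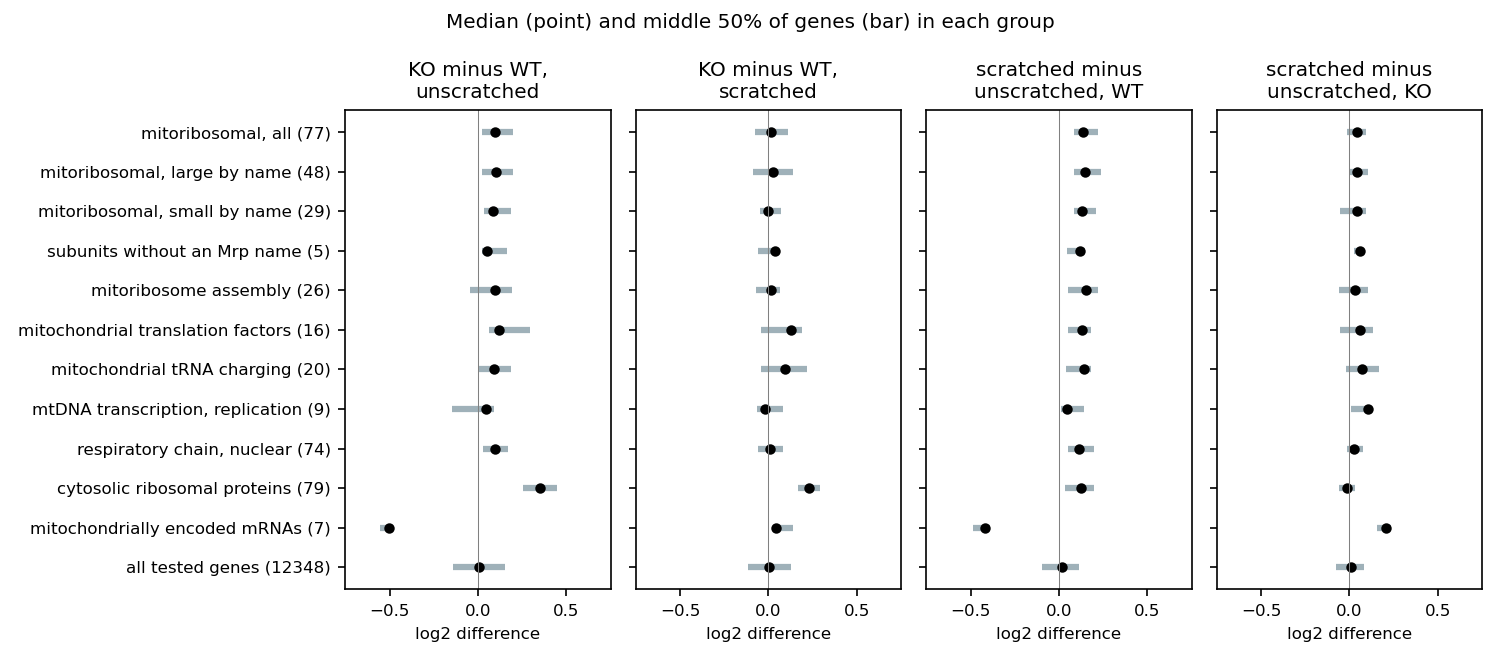
Median log2 difference of each gene list in the 4 comparisons, with bars from the lower to the upper quartile of its genes and the number of genes in brackets. Large and small subunit genes lie at 0.10 and 0.08 for genotype in unscratched cells, cytosolic ribosomal protein genes at 0.35 and mitochondrially encoded mRNAs at -0.51.

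The members were also split by descent. For the 48 genes of bacterial families the medians were 0.15 and 0.02 for genotype (unscratched, scratched) and 0.13 and 0.04 for the scratch (wild-type, knockout-labelled). For the 28 genes of mitochondria-specific proteins they were 0.07 and 0.00, and 0.15 and 0.05. Of the members with a promoter entry that passed the genotype term, 5 of 7 hold the ETS motif, a count too small to compare with the 36.8% of the family.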

How the data were processed

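Strand-specific mRNA libraries of 4 conditions were compared, 1 library each. The authors deposited raw read counts for 46078 genes and RPKM values for 14844 genes, which are empty for 161. Per the submitters' processing notes, the tools were STAR 2.7.9a, HTSeq 0.11.3, Trimmomatic 0.39 and edgeR 3.32.1, and the build was mm10. For the strand setting and the annotation release, the sources used here give nothing. The column letter that does not mark the scratch was read as unscratched. Per-sample columns without a matching sample numbered 0.

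Counts were scaled to CPM with TMM factors, and ratios carry exact 95% Clopper-Pearson intervals on the split of the counts. A call needed a log2 difference (prior count 2) of at least 0.32 in size and an interval excluding 1. The same size was required of the difference of scratch responses. The additive model used edgeR's quasi-likelihood test over 12348 genes, with Benjamini-Hochberg adjustment at 0.05, 1 residual and 25.4 prior degrees of freedom and a biological coefficient of variation of 5.49%. Duplicate reads could not be set apart, so intervals cover counting error only. Exon overlap and positions came from GENCODE M21 of the same build. The steps were tested on simulated data.

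The members and the gene lists were chosen with earlier results of these data known. Members named with their values were the 5 highest and 3 lowest of each subunit, the 6 largest differences per direction whose counting intervals both excluded 1, the 4 largest differences of scratch responses, members of named sites and the Mrps18 paralogs. Of the other lists, up to 4 genes each followed the same rule. Alternatives were total counts, DESeq2 size factors, the RPKM values, fold minimums of 1.5 and 1.1, a prior count of 0.5, other filters, DESeq2, subunits by structure, and, added after seeing the data, members with under 10% exon overlap and removal of length and GC trends.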

Additional observations from a re-analysis of the deposited data

Results flagged for a closer look

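For 4 members the scratch response differed between the genotypes by at least 0.32 (log2) and beyond its counting interval (2.14% of tested genes had a response smaller by that rule in knockout-labelled cells, and 3.15% a larger one). All 4 had a smaller response in knockout-labelled cells. Of the 77 members, 58 had a difference below 0, with a median of -0.08, against 6604 of 12348 tested genes and a median of -0.01. The difference contains the wild-type unscratched library, where 68 of 77 members lay below their own mean, so these values are not independent of that low library. Each difference rests on 4 single libraries, so its interval covers counting error and it was not tested over cultures. Mrpl42 differed by -0.42 (log2, knockout-labelled minus wild-type; 95% interval -0.59 to -0.26), with a response of 0.36 in wild-type cells and of -0.06 in the knockout-labelled ones. Mrpl47, at 10.1, 13.4, 12.3 and 12.7 CPM, differed by -0.37 (-0.66 to -0.07), and 24.2% of its exon bases overlap Actl6a and Ndufb5. Mrps16, at 34.8, 41.7, 43.5 and 40.7 CPM, differed by -0.36 (-0.52 to -0.20). Mrps18c differed by -0.35 (-0.56 to -0.15).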

How the results depend on the processing

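No paired analysis was possible because each condition has 1 library and no replicate numbers are shared beyond it. Depth limits single members: the lowest had 26 counts in a library, and intervals do not include variation between cultures.

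Counts of called members are given for genotype unscratched, genotype scratched, scratch in wild-type and scratch in knockout-labelled cells. With a fold minimum of 1.5 the numbers were 0, 0, 0 and 0 higher and 1, 0, 1 and 0 lower. With 1.1 they were 27, 13, 31 and 8 higher and 3, 7, 4 and 1 lower. The shares of all tested genes at these minimums are not given here. With the RPKM values and the fold alone, genotype scratched gave 2 higher and 1 lower, and scratch in knockout-labelled cells 0 higher. Scaling by total counts or DESeq2 size factors gave 0 higher for scratch in knockout-labelled cells. Among members with under 10% exon overlap, 0 were lower for scratch in wild-type cells, since Mrps34 left. With DESeq2's Wald test 0 members rose or fell with genotype and 0 rose with the scratch (unadjusted p under 0.05: 5 and 2). Of 12348 tested genes 968 passed that test for genotype and 36 for the scratch (unadjusted p under 0.05: 2141 and 461). Without the low-count filter 2 fell with genotype.

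The share of the large subunit, in the order of libraries used throughout, was 72.1%, 72.0%, 72.1% and 72.2% with subunits by structure, and 70.5%, 70.5%, 70.8% and 70.9% from summed RPKM. The cause of each move was not tested.

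Scaling, RPKM, structure and a minimum of 20 CPM moved the subunit medians by at most 0.02. Removing length and GC trends lowered the scratch medians of large and small subunit to 0.09 and 0.07 in wild-type and to 0.02 and 0.02 in knockout-labelled cells, and the genotype medians to 0.07 and 0.07 without a scratch. For genotype after the scratch they were then 0.01 and 0.01. No named member reversed. Mrpl32 and Mrpl22 lost their call with total counts, DESeq2 size factors or RPKM, Mrpl15 with total counts, and Mrpl19 and Mrps28 with total counts or without the filter.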

Other observations

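Of 9 regulators known to act on nuclear genes for mitochondrial proteins, 2 rose (22.2%, against 13.8% of tested genes) and 1 fell (11.1%, against 12.2%) with genotype in the additive fit. Nrf1 was at 63.5, 67.8, 62.6 and 66.1 CPM, Gabpa at 122, 136, 116 and 120 CPM, Yy1 at 89.4, 78.9, 85.4 and 81.9 CPM, and Tfam, which packages mitochondrial DNA, at 87.6, 98.7, 93.1 and 94.3 CPM. None of these 4 passed the genotype term (edgeR's quasi-likelihood test). Myc, a transcription factor known to raise ribosomal protein genes, was at 26.97, 38.1, 48.3 and 57.5 CPM. It rose with genotype by 0.71 ± 0.07 (SE; edgeR adjusted p = 5.8e-09) and with the scratch by 0.36 ± 0.07 (edgeR adjusted p = 0.00232), and was lowest in wild-type unscratched cells. Of all tested genes 31.9% were lowest in that library, and the part of Myc in the family's levels was not tested. Ppargc1a, a coactivator of mitochondrial genes, rose with genotype by 0.56 ± 0.14 (edgeR adjusted p = 0.00413), and Gabpb1 fell by 0.21 ± 0.06 (edgeR adjusted p = 0.0161).

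Of the 77 members, 18 (23.4%) have the start of an oppositely directed protein-coding gene within the 1000 bases upstream of their own start. The share was 10.9% of 11610 tested protein-coding genes. Pairs whose starts overlap head to head were not counted. The 18 partners had median log2 differences of 0.03 for genotype in unscratched cells and 0.01 for the scratch in wild-type cells. In the additive fit 3 partners rose with genotype (Pnpla7, Fau and Ppp1r10) and 1 fell (Helq), where 13.8% and 12.2% of all tested genes did so, while none of the 4 members beside them passed. Mrpl37 lies opposite Cyb5rl, which was at 8.45, 6.92, 6.29 and 6.74 CPM. These genes were named after their values were seen.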
